A study of Drosophila melanogaster with 6 samples.

Results

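The 9 genes described here encode proteins that carry or dampen the Imd signal inside the fly cell. They are imd, Fadd, Dredd, Diap2, Tak1, Tab2, key, IKKbeta and the inhibitor gene pirk. They were chosen by symbol, as known intracellular members of the pathway, with earlier results of these data known. All 9 were found among the 17558 genes of a deposited expression table. The RNA of adult male Drosophila melanogaster was sequenced in 2 groups of 3 libraries, and every fly had been injected with the Gram-positive bacterium Micrococcus luteus 12 h before collection. Control flies had the genotype Gal80ts; Tub-Gal4/P{CaryP}attP40, and flies made to overexpress CR46018, a long non-coding RNA, had the genotype Gal80ts; Tub> CR46018. Both groups thus carried the temperature-sensitive Gal4 repressor Gal80ts and the Tub driver, whose tubulin promoter works in most tissues. The labels give neither the site of the CR46018 transgene nor the age of the flies, nor the temperature regime. By its title, the study asked about CR46018 and the Toll response through the NF-kappaB factors Dif and Dorsal. No library came from uninfected flies or from flies with the Imd pathway blocked, so the values give no measure of induction.

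The Imd pathway is the arm of fly humoral immunity best known for the response to Gram-negative bacteria, whose DAP-type peptidoglycan is bound by the receptors PGRP-LC and PGRP-LE. The adaptor Imd then recruits Fadd and the caspase Dredd, which cleaves Imd, and the ubiquitin ligase Diap2 attaches ubiquitin chains to the complex. Those chains engage the kinase Tak1 with its partner Tab2, which activates the IkappaB kinase made of IKKbeta and its regulatory subunit Kenny (key), and the NF-kappaB factor Relish turns on antimicrobial peptide genes, largely in fat body and gut. Pirk, itself a target of Relish, binds Imd and PGRP-LC and dampens the signal. M. luteus carries peptidoglycan of the other, Lys-type, which is read mainly through Toll.

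Expression is given as FPKM, which divides the fragments of a gene by its length and by library size, so that levels of different genes are compared per length. Recovered whole reads summed to between 15084193 and 17396893 per library. CR46018 itself had 0 reads in each control library and 3, 1 and 0 reads in overexpression replicates 1, 2 and 3 (exact two-sided permutation p = 0.4, smallest possible 0.1). Overexpression of CR46018 is thus not seen in these counts, and replicate 3 of that group had 0 reads. How far this count measures the transgene was not tested. The groups are therefore called by their labels throughout, and overexpressing flies below means only flies with that label. Whether replicate libraries stem from independent sets of flies is not in the labels, and the p-values below cover only the spread among these 6 libraries, technical or not.

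Of the 9 genes, pirk and Diap2 were higher in the libraries labelled as CR46018 overexpression, 0 were lower, and 7 did not pass the test. Across all 12251 genes tested, 300 (2.45%) were higher and 773 (6.31%) lower at an adjusted p under 0.05 (limma on log2(FPKM + 1), Benjamini-Hochberg adjustment). The median log2 difference of the 9 genes was 0.13, beside -0.0024 for all tested genes, and 0.21 beside 0.082 after rescaling to a common FPKM total. Of the 9 differences, 7 were above 0 (8 with median-of-ratios or quantile scaling, 9 after rescaling to a common FPKM total). As deposited, 6054 of all 12251 tested genes were above 0, and rescaling moved the median of all tested genes above 0 as well. At an unadjusted p under 0.05, 4 of the 9 were higher and 0 lower, against 9.95% and 13.5% of all tested genes. In 5 of the 9 genes every overexpression library lay above every control library, a state found in 12.2% of all tested genes, and in 0 of them did every overexpression library lie below, against 16.2%. The split of calls over all genes depends on the scaling: 826 genes were higher and 484 lower once FPKM was rescaled to a common total per library, and 399 and 652 with quantile normalization. That common total also moved the 9 genes, of which 4 then passed, pirk, Diap2, imd and key. Leaving out control replicate 1 left 0 of the 9 past the threshold and 164 genes higher and 458 lower in all. Without control replicate 2 these counts were 1, 156 and 442, and without overexpression replicate 3 they were 1, 135 and 428.

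**Figure D1:**
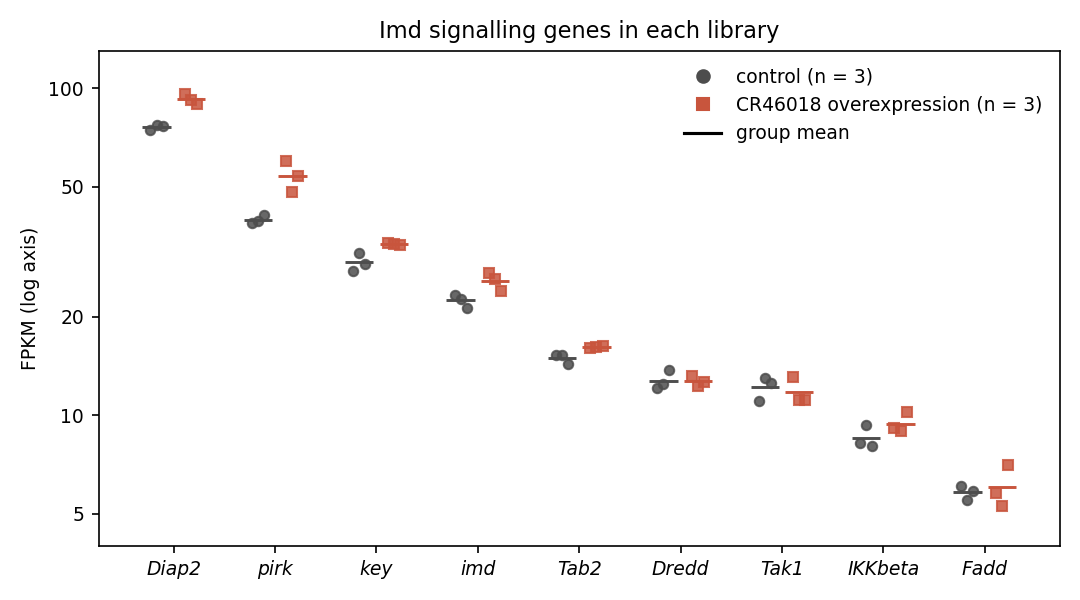
FPKM of the 9 Imd signalling genes in each library on a log axis, genes in order of their control mean, with points for libraries and lines for group means of 3. The overexpression points of Diap2, pirk, key, imd and Tab2 lie above all of their control points, and those of the other 4 genes overlap the controls.

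The genes spanned a wide range of levels in the order Diap2, pirk, key, imd, Tab2, Dredd, Tak1, IKKbeta and Fadd, and the order was the same in both groups. Diap2 stood at the 91.5th percentile of mean FPKM among tested genes and Fadd at the 30.6th. Each gene's libraries lay apart from those of the next gene in the order within either group, with the exception of Dredd and Tak1, whose ranges overlapped in both. In controls the mean of Dredd was 1.05 times that of Tak1, whereas that of Diap2 was 1.92 times that of pirk. Summed over the 9 genes, the level was 216.8 to 226.1 FPKM in control and 253.2 to 274.3 FPKM in overexpression libraries, of which Diap2 made up 34.2% to 36.2% in every library.

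The adaptor gene imd (FBgn0013983, dm6 2R from 18409796 to 18413599, minus strand) encodes the death-domain protein that gives the pathway its name. It measured 23.4, 22.7 and 21.3 FPKM in control replicates 1 to 3 and 27.3, 26.1 and 24.0 FPKM in overexpression replicates 1 to 3. The groups did not overlap, although the lowest overexpression library was only 0.676 FPKM above the highest control. The log2 difference was 0.19 ± 0.07 (SE, n = 3; 95% interval 0.042 to 0.34), and it did not pass after adjustment (limma adjusted p = 0.12, unadjusted p = 0.0187). On an equal FPKM total per library, the difference was 0.28 and passed (adjusted p = 0.0302; range over 15 alternatives 0.0302 to 0.255). The last 40 bp of imd overlap an exon of GstE9 on the other strand, a glutathione transferase gene whose mean was 143.6 FPKM in control and 98.2 FPKM in overexpression libraries. No source used here says whether reads were counted by strand, and the part of that overlap in the value of imd was not tested.

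Fadd (FBgn0038928, 3R from 22034455 to 22035617, plus strand) encodes the adaptor that bridges Imd to the caspase. Its control libraries were at 6.08, 5.53 and 5.89 FPKM and its overexpression libraries at 5.81, 5.28 and 7.03 FPKM. Overexpression replicate 3 was the highest of the 6 and replicate 2 the lowest, so the control range lay inside that of the other group. The log2 difference was 0.036 ± 0.10 (SE, 95% interval -0.19 to 0.27, limma adjusted p = 0.876), and without overexpression replicate 3 it was -0.063. Fadd had the fewest reads of the 9 genes, 379 in controls and 418 in overexpressing flies, and counting alone gives a coefficient of variation of 8.68% per library. The gene is a single exon that lies inside an intron of pit on the same strand, where unspliced transcripts of pit would be counted with it. The exons of pit averaged 6.92 and 6.67 FPKM in controls and overexpressing flies.

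Dredd (FBgn0020381, X from 633622 to 635545, minus strand) encodes the caspase that cleaves Imd and is also needed for the cleavage of Relish. Control libraries measured 12.1, 12.5 and 13.7 FPKM and overexpression libraries 13.2, 12.3 and 12.7 FPKM. The overexpression values all lay within the control range. The log2 difference was -0.0031 ± 0.07 (SE, limma adjusted p = 0.987), and its 95% interval, -0.16 to 0.15, leaves room for a change of that size in either direction. Its sign turned positive with each of the 3 other scalings. Its exons hold the 61 bp of mir-9372 on the same strand, and at its end the gene shares 12 bp of exon with Mybbp1A on the other strand.

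Diap2 (FBgn0015247, 2R from 15932170 to 15934825, minus strand) encodes the ubiquitin ligase of the inhibitor-of-apoptosis family that acts on Imd. It measured 74.3, 77.3 and 76.7 FPKM in control replicates 1 to 3 and 96.1, 91.6 and 89.7 FPKM in overexpression replicates 1 to 3. The groups were separated by a gap of 12.4 FPKM, several times the SD within either group, which was 1.58 FPKM in control and 3.27 FPKM in overexpression libraries. Diap2 rose by 0.28 ± 0.05 on the log2 scale (SE, n = 3; 95% interval 0.16 to 0.39, limma adjusted p = 0.0134). It was the most deeply counted of the 9 genes, with 9073 reads in controls and 11787 in overexpressing flies, and the counting error of 1 library was 1.7%. The call was lost without control replicate 1 (adjusted p = 0.0573), with a log2 difference of 0.26 that was close to the full value.

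Tak1 and Tab2 encode the kinase and the ubiquitin-binding partner that sit where the pathway divides towards Relish and towards JNK signalling. Tak1 (FBgn0026323, X from 20515908 to 20524928, minus strand) measured 11.1, 13.0 and 12.5 FPKM in control libraries and 13.1, 11.1 and 11.2 FPKM in overexpression libraries. The ranges of the groups overlapped almost entirely, with means of 12.2 FPKM in control and 11.8 FPKM in overexpression libraries. Its log2 difference was -0.046 ± 0.09 (SE, 95% interval -0.24 to 0.15, limma adjusted p = 0.813), and 0.043 after rescaling to a common total. Tab2 (FBgn0086358, 2R from 19292529 to 19304508, plus strand) measured 15.3, 15.3 and 14.3 FPKM in the control and 16.1, 16.2 and 16.3 FPKM in the overexpression group. Every overexpression library was above every control, by a margin of 0.829 FPKM. The log2 difference of Tab2 was 0.11 ± 0.05 (SE, 95% interval -0.019 to 0.23) and did not pass (limma adjusted p = 0.289). Counting error alone comes to 2.89% per library for Tab2, above the coefficient of variation of 0.397% seen among its overexpression libraries.

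Of the IkappaB kinase subunits, key (FBgn0041205, 2R from 24785514 to 24787411, minus strand) encodes the regulatory one and IKKbeta, formerly ird5 (FBgn0024222, 3R from 16046347 to 16049421, minus strand), the catalytic one. The control libraries of key stood at 27.7, 31.4 and 29.1 FPKM and its overexpression libraries at 33.6, 33.4 and 33.2 FPKM. All overexpression values of key were higher than the controls and lay close together. Their coefficient of variation of 0.701% is below the 3.41% per library that counting error alone gives for key. The difference was 0.18 ± 0.06 (SE, 95% interval 0.045 to 0.32) with a limma adjusted p of 0.107 and an unadjusted p of 0.0154, and 0.27 with an adjusted p of 0.0306 after rescaling to a common total (range over 15 alternatives 0.0306 to 0.307). Its last 29 bp overlap an exon of CG3589 on the other strand, which averaged 10.2 FPKM in control and 9.19 FPKM in overexpression libraries. IKKbeta measured 8.25, 9.37 and 8.05 FPKM in the control and 9.14, 8.94 and 10.2 FPKM in the overexpression group. Control replicate 2 stood above overexpression replicates 1 and 2, so the groups overlapped. The log2 difference of IKKbeta, 0.13 ± 0.08 (SE, 95% interval -0.058 to 0.31), did not pass (limma adjusted p = 0.396). Its exons share 201 bp with lncRNA:CR45212 on the same strand, which averaged 0.157 FPKM in control and 0.255 FPKM in overexpression libraries.

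Pirk (FBgn0034647, 2R from 21660967 to 21662995, minus strand), the inhibitor, had the largest difference of the 9. Control replicates 1 to 3 were at 38.7, 39.2 and 41.0 FPKM and overexpression replicates 1 to 3 at 59.9, 48.3 and 53.9 FPKM. The groups were 7.27 FPKM apart at their nearest libraries, and the overexpression libraries were more spread, with a coefficient of variation of 10.8% against 3.09% in controls. The level of pirk rose by 0.43 ± 0.08 on the log2 scale (SE, n = 3; 95% interval 0.25 to 0.62, limma adjusted p = 0.0146), and its mean FPKM was 1.36 times that of controls. Its log2 difference was at the 97.7th percentile of all tested genes, and that of Diap2 at the 94.1st. The call of pirk was lost in 3 of the fits that left out 1 library. Its adjusted p was 0.0516 without control replicate 1, 0.053 without control replicate 2 and 0.0524 without overexpression replicate 3, while the log2 difference stayed between 0.36 and 0.51 over all 6 fits that left out 1 library. No annotated exon overlaps pirk.

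**Figure D2:**
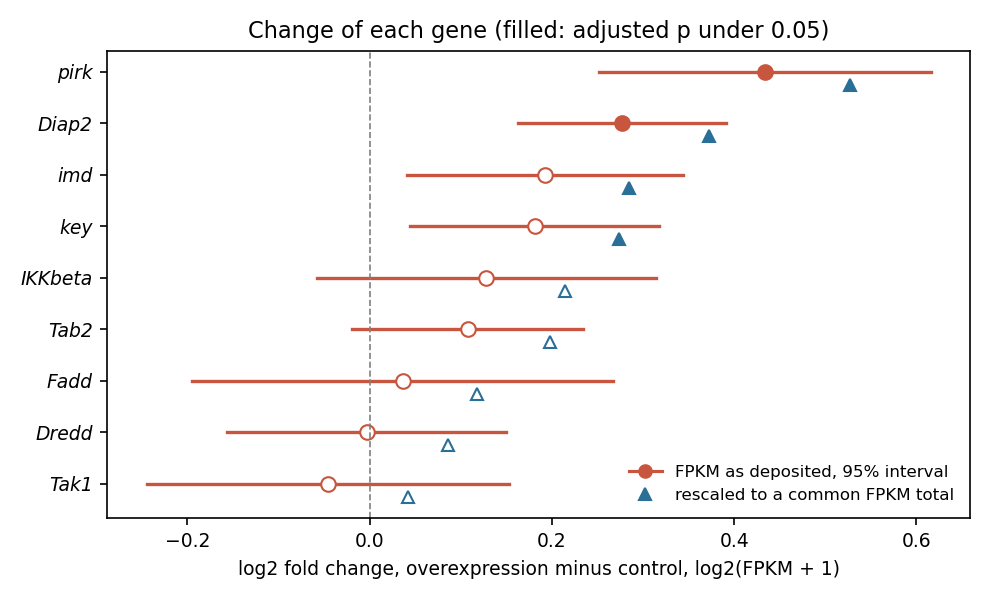
Log2 fold change of each gene, overexpression minus control, on log2(FPKM + 1); circles and bars give the deposited FPKM with 95% intervals, triangles the same after rescaling to a common FPKM total, and filled symbols an adjusted p under 0.05. Rescaling moves all 9 genes to the right, and imd and key then pass beside pirk and Diap2.

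The ratio of partner genes within a library is not changed by a factor applied to the whole library, although quantile normalization, which moves genes unequally, can change it. With 3 libraries against 3, the exact permutation test used for them allows no p below 0.1, so none of the 5 ratios could pass, and they are given for their values. In each of the 5 the groups overlapped. The level of key was 3.35, 3.35 and 3.61 times that of IKKbeta in control replicates 1 to 3 and 3.68, 3.73 and 3.24 times in overexpression replicates 1 to 3. Overexpression replicate 3 was the lowest of the 6, and the mean log2 ratio differed by 0.045 between groups (exact two-sided permutation p = 0.6, adjusted p = 0.75 over the 5 ratios). Tab2 stood at 1.38, 1.17 and 1.14 times Tak1 in controls and at 1.23, 1.45 and 1.45 times in overexpressing flies, a log2 difference of 0.16 (exact permutation p = 0.2, adjusted p = 0.5). Fadd was below Dredd in every library, at 0.429 to 0.502 times its level in controls and 0.428 to 0.555 times in overexpressing flies (exact permutation p = 0.9, adjusted p = 0.9).

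The inhibitor and the ligase were also set against imd. Per library, pirk was 1.66, 1.73 and 1.92 times as high as imd in controls and 2.19, 1.85 and 2.24 times in overexpressing flies. Overexpression replicate 2 fell below control replicate 3, and the other 2 overexpression libraries were above all controls. The mean log2 ratio of pirk to imd differed by 0.24, with SDs of 0.11 in controls and 0.15 in overexpressing flies (exact two-sided permutation p = 0.2, adjusted p = 0.5). Diap2 was 3.18 to 3.60 times as high as imd in controls and 3.51 to 3.73 times in overexpressing flies (log2 difference 0.080, exact permutation p = 0.3, adjusted p = 0.5).

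**Figure D3:**
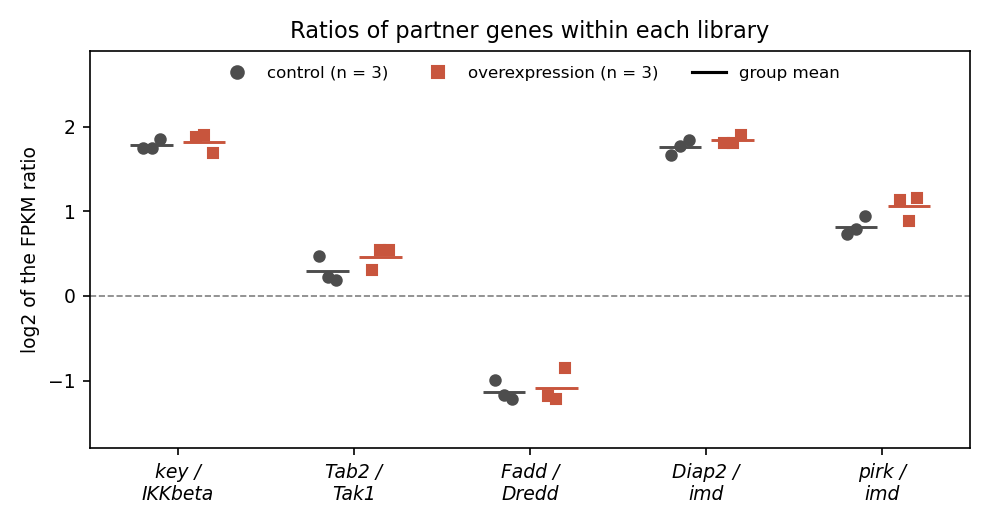
Log2 of the FPKM ratio of 5 pairs of partner genes in each library, with group means of 3; the dashed line marks equal levels. The points of the groups overlap in all 5 pairs, and Fadd is the only numerator that lies below its partner.

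Some of the genes share a further feature that their selection did not use. The 5 genes whose groups did not overlap, imd, Diap2, Tab2, key and pirk, all lie on chromosome arm 2R, and the other 4 lie on X (Dredd, Tak1) and 3R (Fadd, IKKbeta). This was noticed after the values were seen. Among all tested genes, the overexpression libraries lay above every control for 12.1% of 2422 genes on 2R, 14% of 1868 genes on X and 10.8% of 2982 genes on 3R, and the median log2 differences of these arms were -0.0062, -0.0038 and -0.0063. The 5 genes all lie between positions 15932170 and 24787411, with none nearer the start of the arm. After rescaling to a common total, IKKbeta on 3R also had groups that did not overlap, which made 6 of 9 genes against 27.1% of all tested genes.

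Upstream of these 9 genes, the peptidoglycan recognition proteins and amidases had 2 of 10 members higher and 0 lower. The shares of all tested genes were 2.45% and 6.31%. The median log2 difference of these 10 genes was 0.29. All 10 differences were above 0, as were those of 6054 of all 12251 tested genes. After rescaling to a common total 7 members were higher, and so were 826 of 12252 tested genes. With quantile normalization 4 members were higher, and so were 399 of 12251 tested genes. PGRP-SC1a rose from 1.45 ± 0.265 to 3.49 ± 0.627 FPKM (SD, n = 3, limma adjusted p = 0.00771) and PGRP-SC1b from 2.59 ± 0.38 to 4.92 ± 0.858 FPKM (adjusted p = 0.0139). Both encode amidases that degrade peptidoglycan, and as near-identical copies their reads may be divided between them. Without control replicate 2, PGRP-SC1b did not pass (adjusted p = 0.0501). The receptor gene PGRP-LC measured 45.3, 48.3 and 38.5 FPKM in the control and 50.7, 54.4 and 51.8 FPKM in the overexpression group, without overlap, and did not pass (limma adjusted p = 0.116).

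Among 12 genes for ubiquitin and caspase regulators that act on the pathway or on similar complexes, 0 passed by limma. Of all tested genes, 2.45% passed as higher and 6.31% as lower. At an unadjusted p under 0.05, 0 of the 12 were higher and 1 lower, ben (log2 difference -0.15). Over all tested genes those shares were 9.95% and 13.5%. The median of these 12 genes was -0.032 (0.059 after rescaling to a common FPKM total) and their range -0.15 to 0.11. This list holds the conjugating enzymes Uev1A, ben and eff, which work with Diap2, as well as the deubiquitinases CYLD, scny, Usp2, trbd, Duba and faf. Of 8 genes of the JNK branch, from Tak1 through hep and bsk to the JNK phosphatase gene puc, 0 passed, with 1 at an unadjusted p under 0.05, namely puc (log2 difference 0.18, limma adjusted p = 0.102). After rescaling to a common total, 1 of the 8 passed as higher, also puc, beside 826 of 12252 tested genes. The median of the JNK branch was -0.021, and 0.069 after that rescaling. In both lists 3 members had a difference above 0 as deposited, and 11 of 12 and 8 of 8 after rescaling. That rescaling also moved the median of all tested genes, from -0.0024 to 0.082, which is above the rescaled medians of both lists.

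Downstream, 0 of 10 genes for Relish and its nuclear cofactors passed by limma, and their median was 0.096. At an unadjusted p under 0.05, 3 were higher and 0 lower, against 9.95% and 13.5% of all tested genes. One of the 10, pic, encodes a ubiquitin ligase subunit and entered the list only because its symbol resembles pickle, another name of Charon. Relish (Rel) measured 121.0, 132.2 and 100.7 FPKM in the control and 160.6, 126.3 and 156.3 FPKM in the overexpression group. Control replicate 2 exceeded overexpression replicate 2, and the difference of 0.32 ± 0.12 (SE) did not pass (limma adjusted p = 0.149). With FPKM on a common total, 2 of these 10 were higher, beside 826 of 12252 tested genes. Of 13 Imd-class peptide genes, 6 rose and 0 fell (median 0.54), beside 2.45% and 6.31% of all tested genes. The differences of DptA, DptB, Dro and AttA were below 0, from -0.15 to -0.065, and did not pass; with quantile normalization all 13 differences were above 0, and 11 after rescaling to a common total. CecA2 (log2 fold change 1.88), Def (1.62) and edin (0.72) had the smallest p of those, with limma adjusted p from 0.000288 to 0.00492. No library had either pathway blocked, so these peptides cannot be assigned to Imd or Toll here.

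**Figure D4:**
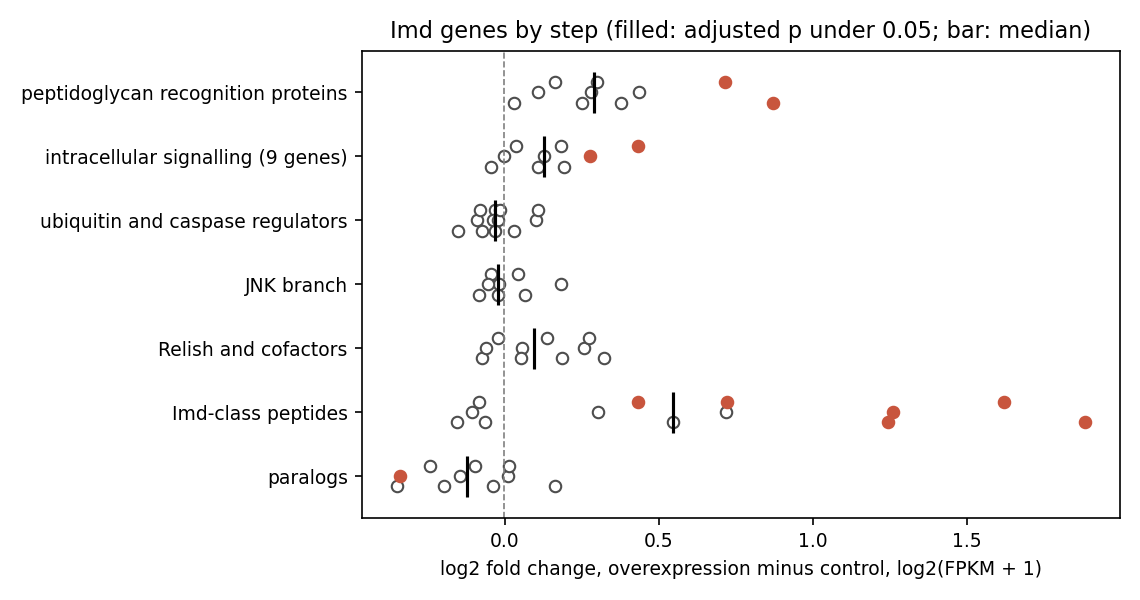
Log2 fold change of the tested genes at each step of the pathway, overexpression minus control; every point is 1 gene, filled points passed at an adjusted p under 0.05, black bars give list medians and the dashed line the median of all tested genes. The intracellular signalling genes have a median of 0.13, between that of the peptidoglycan recognition proteins at 0.29 and that of the ubiquitin and caspase regulators at -0.032 (0.059 after rescaling to a common FPKM total). That rescaling moved the median of all tested genes to 0.082.

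Marker genes of several tissues moved with the groups. Of 5 tested fat body markers 0 were higher and 4 lower, against 2.45% and 6.31% of all tested genes. Their log2 differences ran from -1.76 (apolpp) to -0.36 (Apoltp, limma adjusted p = 0.055). The summed level of the 7 listed in the table was 208.7 to 268.6 FPKM in control and 78.5 to 121.7 FPKM in overexpression libraries. Most of that sum came from apolpp (means 106.4 and 31.7 FPKM) and Lsd-1 (71.3 and 35.7 FPKM). The count of lower fat body markers was 4 under each of the 3 other scalings as well, where 484 to 722 of all tested genes were lower. Muscle markers had 4 of 7 lower (sums 1871 to 2390 and 1465 to 1643 FPKM), or 2 of 7 after rescaling to a common total or with quantile normalization and 3 with median-of-ratios factors. Hemocyte markers had 2 of 7 lower (100.2 to 104.3 and 75.5 to 94.9 FPKM), or 1 after rescaling to a common total. Gut markers went both ways, with 5 of 8 differences above 0 and 3 below. One of them passed, betaTry (log2 difference 0.57), or 3 after rescaling to a common total or with quantile normalization and 2 with median-of-ratios factors, while Jon99Cii had a difference of -0.57 (limma adjusted p = 0.2). Their sums of 5502 to 6380 and 6988 to 7180 FPKM rest on the few most abundant members. Among testis and neuron markers 0 of 7 and 0 of 4 passed by limma, with 1 and 0 at an unadjusted p under 0.05. None of the listed markers was at 0 in all libraries. Markers of the same tissue differed in their change, as with NimC1 (-0.84) and srp (0.0018) of hemocytes, or Mlc2 (-0.69) and Act57B (-0.12) of muscle. Fewer cells of a type, less RNA per cell and changes of single marker genes cannot be told apart in these libraries. The part of tissue composition in the differences of the 9 genes was not tested.

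Profiles closest to those of pirk and Diap2 were sought among all tested genes, by the root mean square difference of log2(FPKM + 1), centred per gene, over the 6 libraries. Nearest to pirk were Hex-t1 (0.042), l(3)neo43 (0.043) and CG6163 (0.045). Hex-t1, named for a hexokinase, measured 7.62 ± 0.528 FPKM in control and 10.8 ± 0.857 FPKM in overexpression libraries (SD, n = 3). Nearest to Diap2 were Sobp (0.018), CG13538 (0.019) and CG30022 (0.026), and CG30022 measured 16.2 ± 0.412 and 19.4 ± 1.05 FPKM. Since these genes were picked for their likeness to genes that passed, their differences between groups follow from the choice. They were part of the limma fit of all genes, but their p-values are for that reason not given. None of these 6 genes was on the lists of Imd genes.

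**Figure D5:**
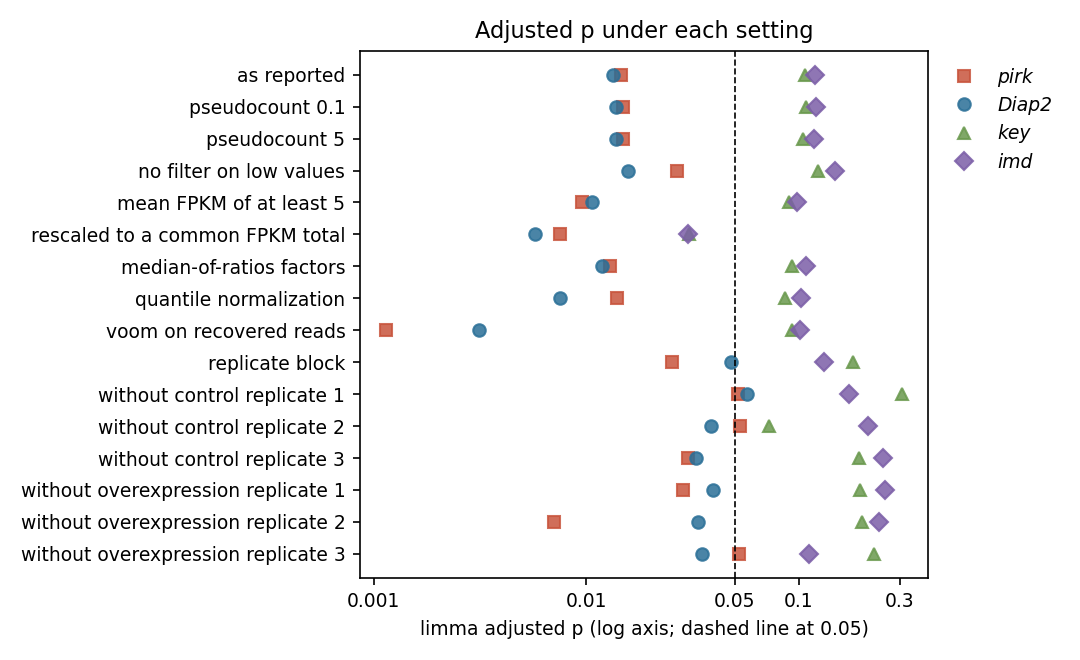
Limma adjusted p of pirk, Diap2, key and imd on a log axis as reported and under each of 15 alternatives, with a dashed line at 0.05. Points of pirk and Diap2 cross the line only when 1 library is left out, and those of key and imd lie below 0.05 only after rescaling to a common FPKM total.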

How the data were processed

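The authors sequenced poly(A)-selected RNA in paired ends, mapped it with HISAT2 2.0.5 and used featureCounts 1.5.0-p3 for gene counts, per the labels' protocols; the build was dm6 per the submitters' processing notes. The deposited values are FPKM, 1 column per library. How counts became FPKM, which annotation was used and whether strand was counted is not stated in them. Symbols, positions and exonic lengths came from the Ensembl release 115 annotation in dm6 coordinates, and 17252 identifiers matched a symbol. FPKM times exonic length gave whole reads, within 0.01 reads, in 97.6% of genes above 0 with a known length and in all 9 genes described. The authors' own DESeq2 test, named in the labels, was not repeated.

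limma 3.58.1 (R 4.3.3) was run on log2(FPKM + 1) of the genes averaging 1 FPKM or more, with a mean-variance trend, two-sided, at an adjusted p of 0.05. Such fold changes understate those of low genes. Counting errors and read totals cover counting only. Between replicates, the chi-square per degree of freedom was 6.57 to 9.74 where sampling alone gives a value near 1, so all 6 libraries were kept as distinct.

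The 9 genes and the other lists were chosen with earlier results of these data known. The text names the 9 genes, CR46018, the 3 nearest profiles of each of the 9 that passed, and genes with overlapping exons. From each other list of Imd genes or relatives it names up to 3 members past the threshold, smallest p first. Marker lists are given mainly by counts. Other genes were chosen after their values were seen. Those were pit, PGRP-LC, Rel, ben, puc, Diap1, IKKepsilon, the lists' members by role, and the single markers named. Alternatives were a pseudocount of 0.1 or 5, testing without a filter or from a mean of 5 FPKM, 3 other scalings, voom on recovered reads, the replicate number as a block, and leaving out each library. Gene sequences were not used here.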

Additional observations from a re-analysis of the deposited data

How the results depend on the processing

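After rescaling to an equal FPKM total, there were 826 higher and 484 lower genes, and 4 of the 9 Imd signalling genes were higher; the log2 difference was then 0.28 for imd and 0.27 for key, which both passed, and 0.086 for Dredd and 0.043 for Tak1, which changed sign without passing. Dredd was at 0.0048 with median-of-ratios factors and at 0.0084 with quantile normalization. Rescaling to an equal FPKM total raised the median of all tested genes to 0.082. Over the 6 fits that left out 1 library, 135 to 286 genes were higher and 428 to 628 lower, and 0 to 2 of the 9 genes were higher. It was 0 without control replicate 1, and 1 without control replicate 2 or overexpression replicate 3. Over those fits the log2 difference was 0.25 to 0.30 for Diap2, 0.36 to 0.51 for pirk, 0.15 to 0.24 for imd, 0.14 to 0.23 for key, -0.063 to 0.115 for Fadd and -0.038 to 0.046 for Dredd. The cause of these changes was not tested. Fits that leave 1 library out also rest on fewer libraries, and the part of that was not tested either. Tab2 and IKKbeta kept their direction and did not pass under any of 15 alternatives. Of the genes named from the other lists of Imd genes or relatives, Takl2 lost its call under 12 of 14 alternatives and PGRP-SC1b under 1 of 14. Deviations from the group means of same-numbered libraries correlated at 0.046, -0.076 and 0.026 for numbers 1 to 3. With so few libraries, these values cannot settle whether same-numbered libraries were handled together, and the labels do not say. With the replicate number as a block, 219 genes were higher and 616 lower, and 2 of the 9 were higher. Depth limits Fadd most, with 379 reads over the control libraries.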

Other observations

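Relatives of the 9 genes that act in cell death or other pathways were counted as a list. Of 10 tested, 0 rose and 1 fell, against 2.45% and 6.31% of all tested genes. Their median log2 difference was -0.12, beside -0.0024 for all tested genes. After rescaling to an equal FPKM total, that median was -0.036, beside 0.082 for all tested genes. In that setting 1 of the 10 rose and 0 fell, beside 826 and 484 of all 12252 tested genes. Diap1, the better-known inhibitor of apoptosis, was at 89.1 ± 0.419 FPKM in control and 90.1 ± 2.76 FPKM in overexpression libraries (SD, n = 3; log2 difference 0.015, 95% interval -0.094 to 0.12, limma adjusted p = 0.895). IKKepsilon, a kinase related to IKKbeta, measured 8.29 ± 0.0891 and 8.36 ± 0.273 FPKM (adjusted p = 0.949). Takl2, which resembles Tak1, measured 5.32, 4.73 and 5.78 FPKM in the control and 3.88, 4.09 and 3.90 FPKM in the overexpression group and was the gene that fell (log2 fold change -0.34, limma adjusted p = 0.0492). That call held under 2 of 14 alternatives, with adjusted p from 0.0478 to 0.143. Whether any of these genes differed from its relative among the 9 in its response was not tested. Diap1 and IKKepsilon were named after their values were seen.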
